A study of Mus musculus with 4 samples.

Results

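The genes described here are 10 genes of Notch signaling: the ligands Dll1, Dll4, Jag1 and Jag2, the receptors Notch1, Notch2, Notch3 and Notch4, and the targets Hes1 and Hey1. They were chosen by name, and their probes were found through the RefSeq accession that the array gives for each probe. All 10 were on the array, among 22911 gene symbols, with 11 probes in all because Notch4 had 2. RNA was measured on 4 single-color arrays, 2 of ID8G cells and 2 of GO2 cells. ID8G is a line of ID8 cells, a mouse ovarian cancer (OC) line, that carries green fluorescent protein (GFP) from a retrovirus and was sorted for it. GO2 was derived from ID8G by 2 rounds of intraperitoneal injection into female C57BL/6 J mice, with GFP-positive, CD45-negative cells sorted from the omental tumors each time, and so carries the same GFP. Both lines were grown in the same low-serum medium with insulin, transferrin and sodium selenite before RNA was taken, and no other treatment is given in the labels. GO2 is a single selected line, so a difference from ID8G belongs to these cell populations, and nothing in the labels says whether the arrays of a line came from separate cultures. The p-values therefore measure the spread between these arrays, which may be technical.

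Notch receptors sit in the cell membrane and are activated by ligands of the Delta-like and Jagged families on a neighboring cell. Binding lets ADAM proteases and then the gamma-secretase complex cut the receptor, and the freed intracellular part joins the DNA-binding protein RBPJ and Mastermind-like coactivators to switch on genes such as those of the Hes and Hey repressor families. Ligand and receptor in the same cell can also inhibit each other, fringe glycosyltransferases tune which ligands a receptor answers to, and the pathway has been studied in ovarian cancer for its roles in growth, stemness and the tumor vasculature.

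The ligand Dll1 had the largest difference of the 10 genes, being 11.8-fold lower in GO2 cells. Among the ligands Jag1 was also lower, among the receptors Notch2 was higher, and both targets were lower. RefSeq promoters (GRCm38.p6) were at hand for 8 of the 10 genes, the ligands and receptors, and not for the targets Hes1 and Hey1. They gave 9 windows of 250 bases that end just before a transcription start. The windows of the 3 ligand and receptor genes whose difference passed the test are shown so that their sequence can be read beside their change, with any GC box, the Sp1-type motif GGGCGG on either strand, in capitals. Dll1 has 2 starts in the annotation, and its windows lie at chr17:15375824-15376073 and chr17:15376933-15377182 on the minus strand. That of Jag1 lies at chr2:137116521-137116770 on the minus strand and that of Notch2 at chr3:98013288-98013537 on the plus strand.
Dll1 first start: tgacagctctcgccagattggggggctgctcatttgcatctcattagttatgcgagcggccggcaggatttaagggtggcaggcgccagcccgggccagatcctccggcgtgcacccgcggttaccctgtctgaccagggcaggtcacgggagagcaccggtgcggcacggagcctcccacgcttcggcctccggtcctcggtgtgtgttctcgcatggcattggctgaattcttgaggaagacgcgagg
Dll1 second start: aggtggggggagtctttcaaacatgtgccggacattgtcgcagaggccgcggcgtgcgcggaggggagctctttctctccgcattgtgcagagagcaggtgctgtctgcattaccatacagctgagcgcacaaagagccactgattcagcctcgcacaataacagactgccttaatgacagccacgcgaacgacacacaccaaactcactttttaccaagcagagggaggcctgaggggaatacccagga
Jag1: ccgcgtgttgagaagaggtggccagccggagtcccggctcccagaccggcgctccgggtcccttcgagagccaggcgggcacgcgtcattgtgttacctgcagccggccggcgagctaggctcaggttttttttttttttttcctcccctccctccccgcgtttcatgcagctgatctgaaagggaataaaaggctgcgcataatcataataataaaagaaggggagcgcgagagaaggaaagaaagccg
Notch2: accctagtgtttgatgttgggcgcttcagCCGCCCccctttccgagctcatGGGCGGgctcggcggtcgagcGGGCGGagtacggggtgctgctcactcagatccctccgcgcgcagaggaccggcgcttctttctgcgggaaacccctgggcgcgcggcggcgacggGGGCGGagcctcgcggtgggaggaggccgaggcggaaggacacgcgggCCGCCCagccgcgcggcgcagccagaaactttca

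The Dll1 and Jag1 windows held no GC box, and the Notch2 window held 5. Of the windows not shown, those of Jag2 and Notch1 held 5 each, that of Notch3 4, that of Dll4 2 and that of Notch4 0. Whether the motif relates to the differences was not tested. Across all 9 windows 5 held the motif, as did 32.7% of the 32851 windows of this length in the annotation. The RBPJ motifs GTGGGAA and GTGAGAA and the E-box CACGTG, read on both strands, were in 0 of the 9 windows. Of all windows, 5.42%, 3.83% and 6.02% held them. These 9 windows belong to ligands and receptors, and the promoters of the targets Hes1 and Hey1 were not searched. A match is a string of letters and not a measured binding site, and these windows cover only the bases just before the start. The G and C content ran from 56.0% in the second Dll1 window to 87.2% in the Jag2 window.

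Levels below are log2 intensities relative to the 75th percentile of the same array, so 0 is a bright probe and the lowest signal well above background on an array lay between -3.85 and -3.53. Levels of different probes are not compared, because each probe has its own efficiency. A probe was tested with limma when both arrays of at least 1 line were well above background, which held for 8 of the 11 probes, 1 for each gene except Dll4 and Jag2. Differences are GO2 minus ID8G, n = 2 arrays per line, and a probe was called when its adjusted p was below 0.05 over all 28368 tested probes and its difference was at least 1, that is 2-fold. For 1 probe with 2 arrays against 2, the smallest two-sided p of an exact permutation test is 0.333, so the calls rest on the spread that limma shares across probes. The array totals were close: the 75th percentile was 627 to 675, 27502 to 28834 of 56605 probes were well above background, and no spot was saturated. All arrays lay on 1 slide in 1 scan, with the lines side by side, so slide position and cell line cannot be told apart.

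**Figure D1:**
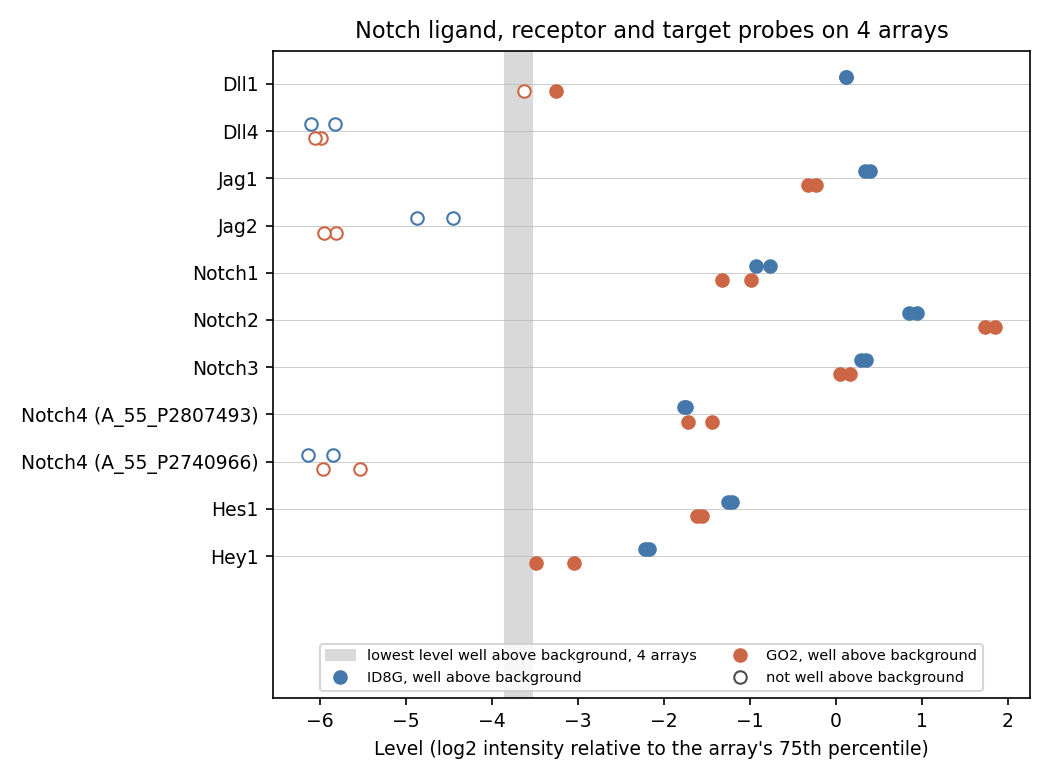
Level of each of the 11 probes on each array (x axis, log2 intensity relative to the array's 75th percentile), with ID8G in blue and GO2 in orange, filled where the probe was well above background and open where it was not. The gray band spans the lowest level well above background on the 4 arrays. Dll1 dropped from near 0 in ID8G to the gray band in GO2, while Dll4, Jag2 and the second Notch4 probe lay left of the band on all 4 arrays.

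Of the 8 tested probes, 0 were called higher and 2 were called lower, Dll1 and Hey1, where 4.5% of all tested probes were called higher and 3.34% lower. At an unadjusted limma p under 0.05, 1 member was higher and 5 were lower, where 22.5% of all tested probes were higher and 25.7% lower. By adjusted p alone, 1 was higher and 4 were lower, against backgrounds of 17% and 18.8%, and with the spike-in scaling, which lowers all differences, 1 was higher and 6 were lower against 8.59% and 33.6%. The difference was negative for 6 of the 8 and positive for 2, with a median of -0.33 where the median of all tested probes was -0.02 and their quartiles were -0.22 and 0.18. No array of one line overlapped the other line for any of the 8, which also held for 73.6% of all tested probes.

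Among the ligands, Dll1, a Delta-like ligand that activates Notch in the adjoining cell, had levels of 0.12 and 0.11 in ID8G and -3.63 and -3.25 in GO2. Both ID8G arrays were moderately bright, and in GO2 the probe was well above background on 1 of the 2 arrays. The background-corrected intensities were 736 and 723 in ID8G and 51.3 and 65.9 in GO2. The mean fell from 0.12 ± 0.01 to -3.44 ± 0.27 (SD, n = 2), a difference of -3.56 with a standard error of 0.14, a 95% interval of -3.94 to -3.17 and an adjusted p of 0.000512. Both GO2 levels were above the lowest signal well above background on their arrays. A bound set at that signal therefore returns the measured 11.8-fold and does not limit it. With the normexp background correction, which adds an offset of 50 to the signal, the difference was -2.37.

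Jag1, a Jagged ligand with a long cysteine-rich extracellular part, had levels of 0.34 and 0.39 in ID8G and -0.32 and -0.24 in GO2. Each line's arrays lay within 0.1 of each other and the lines were well apart. Jag1 fell by 0.65 (standard error 0.06, 95% interval -0.82 to -0.48, adjusted p = 0.00402), which is 1.57-fold and short of the 2-fold needed for a call. The remaining ligands were not measurable. Dll4, the ligand best known from blood vessel sprouts, had levels between -6.11 and -5.82, and Jag2 had -4.45 and -4.87 in ID8G and -5.81 and -5.95 in GO2. Neither was well above background on any array, so no fold is given for them. Of the 4 ligands, the 2 that were measured were both lower in GO2 by adjusted p, as were 18.8% of all tested probes.

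Among the receptors, Notch2 was the one that passed the test. Its levels were 0.85 and 0.94 in ID8G and 1.73 and 1.85 in GO2, higher on both GO2 arrays. Notch2 rose by 0.89 (standard error 0.07, 95% interval 0.69 to 1.096, adjusted p = 0.00287), which is 1.86-fold, so its interval spans the 2-fold line and it was not called.

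Notch1, the receptor best known from T-cell leukemia, had levels of -0.76 and -0.93 in ID8G and -0.98 and -1.33 in GO2. The lines did not overlap, but their nearest arrays lay closer to each other than the arrays within either line, and the difference of -0.31 (95% interval -0.70 to 0.08) had an adjusted p of 0.161. Notch3, a receptor prominent in vascular smooth muscle and amplified in some ovarian cancers, had 0.35 and 0.29 in ID8G against 0.05 and 0.17 in GO2. Its difference of -0.21 (95% interval -0.40 to -0.03) had an adjusted p of 0.0726. A change of 2-fold lies outside both intervals. For Notch1 and Notch3 the spike-in scaling, which lowered every difference by about 0.21, brought the adjusted p below 0.05, as the median centring and the shared intensity trend did for Notch3.

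Notch4, a receptor known mainly from endothelium, had 1 probe of its 2 that could be tested, with -1.74 and -1.76 in ID8G and -1.44 and -1.72 in GO2. The difference of 0.17 (95% interval -0.13 to 0.47, adjusted p = 0.294) did not pass, and it became -0.04 with the spike-in scaling. The other Notch4 probe lay between -6.14 and -5.53 and was not well above background on any array. Whether the 2 probes read different transcripts was not tested. Thus 4 of 4 receptors were measured, with 1 higher in GO2 by the test and 3 not passing it. By adjusted p, 17% of all tested probes were higher.

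**Figure D2:**
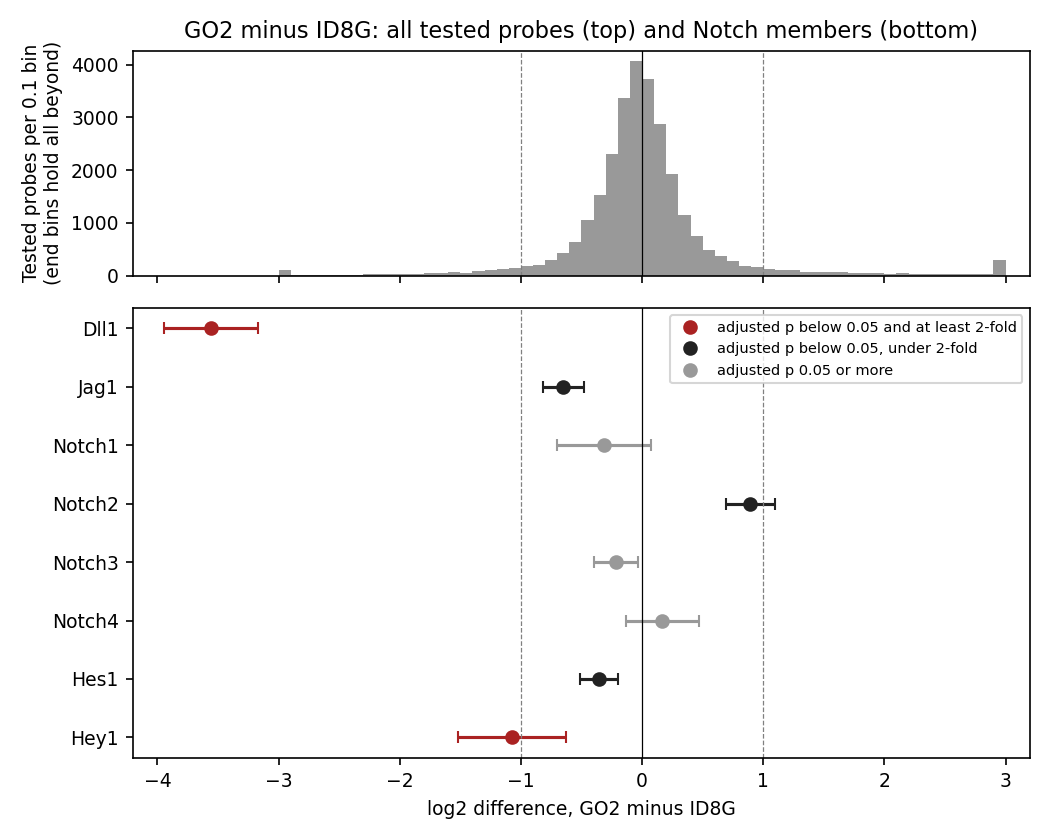
Top, the differences of all 28368 tested probes in bins of 0.1 on the log2 scale, the end bins holding all values beyond them. Bottom, the difference GO2 minus ID8G of the 8 tested members with its 95% interval (n = 2 arrays per line), red where called, black where the adjusted p was below 0.05 under 2-fold, gray otherwise, with dashed lines at 2-fold. Dll1 at -3.56 stands far left of the bulk of the probes, and Notch2 at 0.89 is the member furthest to the right.

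Both targets encode basic helix-loop-helix repressors that Notch switches on in many tissues. Hes1 had levels of -1.25 and -1.21 in ID8G and -1.55 and -1.62 in GO2, so each line's arrays were close and GO2 was lower. Hes1 fell by 0.36 (standard error 0.06, 95% interval -0.51 to -0.20, adjusted p = 0.0144), which is 1.28-fold. Leaving out any 1 of the 4 arrays took the adjusted p to between 0.0506 and 0.0683, and testing all probes with no filter took it to 0.109.

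Hey1 had levels of -2.21 and -2.17 in ID8G and -3.49 and -3.04 in GO2. Its signal cleared background in every sample and was lower in GO2, whose arrays differed from each other more than the ID8G arrays did. Hey1 fell by 1.07 (standard error 0.16, 95% interval -1.52 to -0.63, adjusted p = 0.0132), which is 2.11-fold. Its place on the called side of the 2-fold line depended on GO2 replicate 1, without which the difference was -0.85 with an adjusted p of 0.0134. With the normexp correction it was -0.55, and with no filter the adjusted p was 0.0714.

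Hey1 was the only called member whose signal cleared background in every sample. Over the 4 arrays, the genes with levels most like it, by the Euclidean distance of the centered levels among 17941 probes, were Ampd3, an AMP deaminase, at 0.04, Trp53inp2, a protein of autophagy, at 0.11, and Pard3, a scaffold of cell polarity, at 0.12. A pattern over 4 arrays of 2 lines is mostly the difference between the lines, which was -1.07 for Ampd3, -0.98 for Trp53inp2 and -1.06 for Pard3.

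The other genes of the pathway were taken from 7 lists by role, with each gene read by its brightest probe. Of 62 genes, 61 were found on the array and 49 were tested. By call, 2 were higher and 5 lower, where 5.96% of all 13212 tested genes were called higher and 3.94% lower. By adjusted p alone, 16 were higher and 11 lower, against 21% and 20% of all genes. Their median difference was 0.01 on the log2 scale, and that of all genes was -0.00. These shares are read beside the background, and no test of the lists was made.

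**Figure D3:**
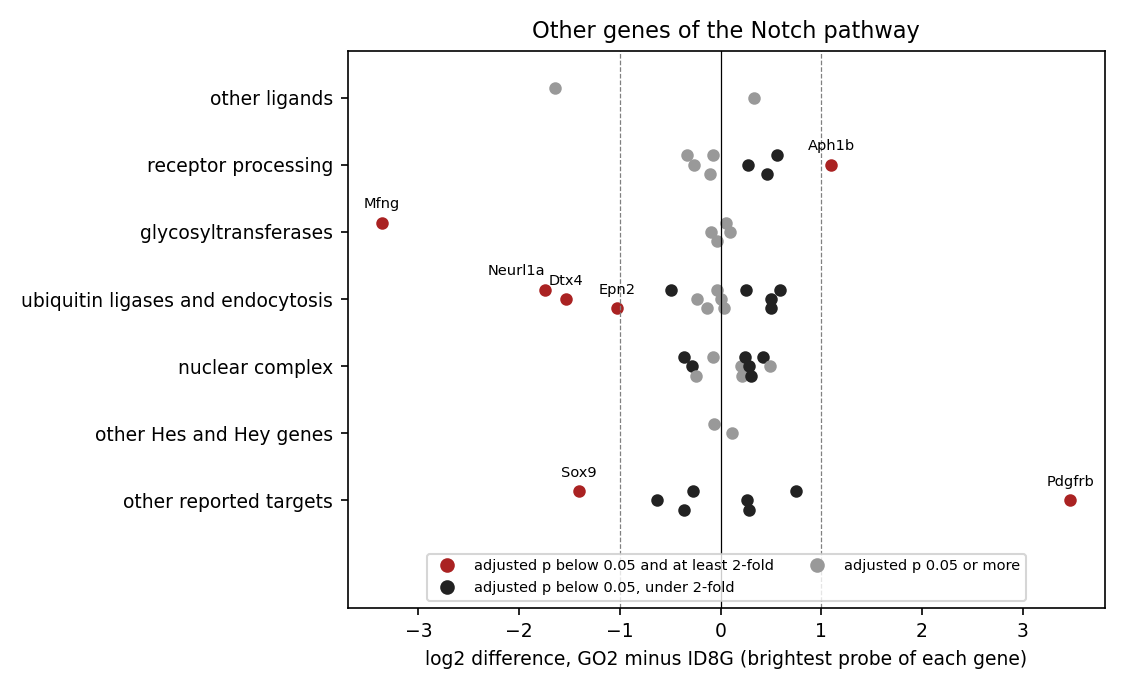
Difference GO2 minus ID8G (x axis, log2) of the 49 tested genes in 7 lists, 1 point per gene at its brightest probe, red and named where called, black where the adjusted p was below 0.05 under 2-fold, gray otherwise. Vertical offsets only separate the points, and Mfng, Cntn1, Maml3 and Pdgfrb, not well above background in 1 line, are drawn at their measured difference. Most genes lie within the dashed 2-fold lines, with 5 called to the left and 2 to the right.

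The noncanonical and additional ligands were mostly not measurable, since Dll3, Dlk1 and Dner were not well above background on any array. Dlk2, a Delta-like homolog, had 0.59 and 0.41 in ID8G against 0.78 and 0.87 in GO2, a difference of 0.33 (adjusted p = 0.0515). Cntn1, a contactin of neural cell contacts, had -3.43 and -3.57 in ID8G and -5.92 and -4.35 in GO2. It was not well above background in GO2, so that only a bound of at least 1.24-fold can be given. The adjusted p of 0.0872 for Cntn1 belongs to the measured -1.64 and not to the bound. Its measured difference rested on single arrays, being -2.43 without GO2 replicate 2 (adjusted p = 0.00444) and -0.85 without GO2 replicate 1 (adjusted p = 0.0221). The adjusted p was 0.000989 with the spike-in scaling and 0.0253 with the intensity trend.

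Of the 8 tested genes that cut the receptor, 4 were higher by adjusted p and 0 lower, against 21% and 20% of all genes. Aph1b, a subunit of gamma-secretase, was the one called, with -0.69 and -0.63 in ID8G and 0.41 and 0.47 in GO2. It rose by 1.102 (standard error 0.06, adjusted p = 0.000945), and its difference was 0.89 with the spike-in scaling and 0.94 with normexp, under 2-fold in both. The other gamma-secretase subunits Aph1a (0.57) and Ncstn (0.27) and the protease Adam10 (0.46), which makes the first cut, also passed by adjusted p. A dimmer Aph1a probe read -0.22 (adjusted p = 0.141) where 2 further dimmer ones read 0.21 and 0.44. The sheddase Adam17 (-0.34), Psen2 (-0.26), Psenen (-0.10) and the convertase Furin (-0.08) did not pass. With the spike-in scaling 2 genes of this list were higher and 2 lower, where 10.4% of all genes were higher and 31.9% lower.

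Among the 5 enzymes that put sugars on the receptor, Mfng, a fringe, was called. Its levels were -2.83 and -2.59 in ID8G and -6.03 and -6.11 in GO2. It was not well above background in GO2 and was tested through its ID8G arrays alone, so its fold is a bound, at least 2.15-fold lower. The adjusted p of 0.000319 belongs to the measured difference of -3.36, which rests on background signal in GO2, and not to the bound. Over all genes, 3.94% were called lower. The other fringes Lfng (-0.10) and Rfng (0.10) and the fucosyl- and glucosyltransferases Pofut1 (0.05) and Poglut1 (-0.03) did not pass. A dimmer Lfng probe read -0.37 (adjusted p = 0.028).

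Ubiquitin ligases and endocytic adaptors, which pull on the ligand or remove the receptor, held 3 of the 5 pathway genes called lower. This is the largest list, with 13 of the 49 tested genes, and 3.94% of all genes were called lower. Neurl1a, a Neuralized ligase that acts on ligands, had 4.25 and 4.34 in ID8G and 2.52 and 2.60 in GO2. It fell by 1.74 (adjusted p = 0.000475). Dtx4, a Deltex ligase that acts on the receptor, fell by 1.53 from 2.56 and 2.60 to 1.002 and 1.083 (adjusted p = 0.000487). Epn2, an epsin of clathrin-coated pits, fell by 1.03 (adjusted p = 0.000802), and its second probe fell by 0.96. At the brightest probe of all 3 genes the arrays within a line were no more than 0.1 apart and the lines were far apart.

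In the same list 4 genes were higher by adjusted p without reaching 2-fold: Numbl (0.59), Dtx2 (0.50), Dtx3 (0.50) and Mib2 (0.25). Over all genes, 21% were higher and 20% lower by adjusted p. Neurl1b was lower at -0.49 (adjusted p = 0.00709). The ligand ligase Mib1 had -0.24 (adjusted p = 0.0519), the receptor inhibitor Numb had -0.14, and Epn1, Itch and Fbxw7 lay between -0.04 and 0.03. Dtx1 was not well above background. With the spike-in scaling 1 gene was higher and 6 lower by adjusted p, and the same 3 were called. Under that scaling 10.4% of all genes were higher and 31.9% lower.

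None of the 11 genes of the nuclear complex and its corepressors reached 2-fold. By adjusted p 4 were higher, among them Maml1 (0.42), Maml2 (0.30) and Rbpj (0.24), the DNA-binding core of the complex. The shares over all genes were 21% higher and 20% lower. The histone acetyltransferases Ep300 (-0.36) and Kat2b (-0.28) were lower, although a second Ep300 probe read -0.02 (adjusted p = 0.904). With the spike-in scaling 0 were higher and 3 lower, where 10.4% of all genes were higher and 31.9% lower. With the replicate number as a block 3 were higher and 0 lower. The split of this list therefore depends on these choices.

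Of the 7 other Hes and Hey genes, 5 (Hes2, Hes3, Hes5, Hey2 and Heyl) were not well above background on any array. Hes6 (-0.07) and Hes7 (0.11) were measured and did not pass. Hes1 and Hey1 were therefore the members of these repressor families whose level differed by the test.

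Other genes reported as Notch targets went both ways, with 4 of the 8 tested higher and 4 lower by adjusted p. Of all genes, 21% were higher and 20% lower by adjusted p. Pdgfrb, a receptor tyrosine kinase of mesenchymal cells, had -5.73 and -6.03 in ID8G and -2.58 and -2.23 in GO2. It was not well above background in ID8G and was tested through its GO2 arrays alone, so its fold is a bound, at least 2.42-fold higher. The adjusted p of 0.000788 belongs to the measured difference of 3.47, which rests on background signal in ID8G, and not to the bound. Sox9, a transcription factor of progenitor cells, had 0.48 and 0.43 in ID8G and -0.85 and -1.05 in GO2. It fell by 1.41 (adjusted p = 0.00135), and a dimmer probe fell by 0.38. Snai2, an inducer of the epithelial-mesenchymal transition, rose by 0.75, Ccnd1 by 0.29 and Efnb2 by 0.26. Cdkn1a fell by 0.63, with a dimmer probe at least 1.33-fold lower that was not well above background in GO2, Nfkb2 fell by 0.36 and Myc by 0.27. Nrarp, a feedback inhibitor widely used as a readout of Notch activity, and the T-cell genes Ptcra and Il2ra were not well above background on any array.

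Markers of other cells were read beside these values, since Dll4 and Notch4 are known from endothelium and Notch3 and Pdgfrb from mural cells. In bulk RNA, fewer cells of a type and less RNA per cell cannot be told apart. Of 7 endothelial markers, 6 (Cdh5, Kdr, Tek, Tie1, Vwf and Emcn) were not well above background on any array, and Pecam1 differed by 0.08. Their summed linear level, in units of the array's 75th percentile, was 0.191 to 0.236 in ID8G and 0.213 to 0.240 in GO2. The leukocyte markers Ptprc and Adgre1 were not well above background, Cd68, Csf1r, Itgam and Cd3e were measured without passing the test at their brightest probe, a dimmer Cd3e probe read 0.30 (adjusted p = 0.0489), and the sum of the 7 markers was 22.8 to 25.6 in ID8G and 23.0 to 23.2 in GO2.

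Of 6 fibroblast markers, Col1a1 (4.69), Col1a2 (7.49) and Pdgfra (3.70) were called higher, Dcn had -0.63, and Lum and Thy1 were not well above background. Their sum was 67.4 to 70.1 in ID8G and 127 to 130 in GO2. Over all genes, 5.96% were called higher. Of 7 smooth muscle and pericyte markers, Cnn1 (at least 2.58-fold, ID8G not well above background) and Tagln (1.46) were called higher. Acta2 read 0.30 at its brightest probe and 5.64 at another, which was called. A further Acta2 probe, not well above background in ID8G, was called at least 2.62-fold higher. Myh11, Rgs5 and Des were not well above background, with Cspg4 above it on 1 GO2 array. Their sum was 23.9 to 24.0 in ID8G and 30.7 to 31.6 in GO2.

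The epithelial sum of 6 markers was 543 to 561 in ID8G and 284 to 286 in GO2. Krt19 was called lower at -1.65, where 3.94% of all genes were called lower. Krt18 (-0.81) and Krt8 (-0.55) were lower by adjusted p without reaching 2-fold, and Cdh1 (-0.34, adjusted p = 0.06) did not pass. Epcam and Krt7 were not well above background on any array. Of 4 mesothelial markers, Upk3b rose by 1.08, Msln had -0.82, and Wt1 (-0.10) and Lrrn4 (-0.04) did not pass. Their sum was 102 to 113 in ID8G and 89.6 to 91.7 in GO2. Of 4 adipocyte markers, Fabp4 was at least 6.28-fold lower in GO2, Lep did not pass, and Adipoq and Plin1 were not well above background. Their sum was 0.848 to 0.897 in ID8G and 0.458 to 0.502 in GO2. The part of these shifts in the Notch values was not tested.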

How the data were processed

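RNA of 2 ID8G and 2 GO2 samples was labeled with Cy3 and hybridized to SurePrint G3 Mouse GE 8x60K arrays. The deposited scanner files give linear spot intensities, background-corrected by the authors with Feature Extraction 11.5.1.1 (per the labels' processing notes) and not normalized between arrays. The deposited value table holds log2 values. Compared with the scanner values, it had been scaled by the 75th percentile per array and then centered per probe on the median over arrays, in the same direction (column medians 0.104, -0.048, 0.038 and -0.0486), and was used as an alternative. How it was exported is not given in the sources used here.

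Spots marked as outliers were left out, spots of a probe were averaged, the array's 75th percentile was subtracted on the log2 scale, and the result was tested with limma 3.58.1 (R 4.3.3, lmFit and eBayes, Benjamini-Hochberg over 28368 probes). A probe was tested if 1 line or both had it well above background on each of their arrays. Of 56605 probes, 32994 (58.3%) were named through their RefSeq accession with a GRCm38.p6 table. The array was designed on an earlier build, so the coordinates printed are those of the promoter table. The code was tested on simulated data. The number of arrays limits the precision.

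The members, the lists and the tests were chosen with earlier results of these data known. Named genes were the members and, in each list, the called genes, those with the largest differences and those with the brightest probes. A few genes of the lists are not reported here by name. Where only 1 line was well above background, the fold is a bound: the bright line's mean against the dim line's mean of, per array, the higher of its level and the lowest level well above background. Alternatives were normexp (offset 50, on the median signal and median background, because the files give no mean signal), other scalings, filters, tests and thresholds, each array left out, and the replicate number as a block. That number did not pair the arrays (correlation of same-numbered deviations 0.0273). Replicate arrays correlated at 0.997 in both lines.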

Additional observations from a re-analysis of the deposited data

How the results depend on the processing

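With 2 arrays per line, the limits are the replicate number and, for Dll1 and Hey1 in GO2, signal close to background. Of the members, 0 were called higher and 2 lower. The lower count was 1 with normexp, with no filter, with probes well above background on all 4 arrays (where Dll1 was not tested), with limma treat and without GO2 replicate 1, and 0 with the methods' Welch test after adjustment, which left 1 higher and 3 lower at an unadjusted p under 0.05. By adjusted p alone the counts were 1 and 4. Leaving out 1 array gave 0 higher and 1 to 2 lower. Over all tested probes, 1277 were higher and 947 lower. These counts were 818 and 517 with normexp, 666 and 606 with probes above background on all 4 arrays, 0 and 3 with the Welch test (3377 and 3599 at an unadjusted p under 0.05), 748 and 440 with treat and 4834 and 5346 by adjusted p alone, and ran from 1230 to 1311 and from 934 to 1011 with 1 array left out. Scaling to the 7 spike-ins, which shifted differences by -0.21, gave 1102 and 1434, so that 43.5% of calls were higher in place of 57.4%. Of the other pathway genes 2 were called higher and 5 lower. The higher count was 1 with normexp, spike-in scaling, probes above background on all 4 arrays and treat, the lower count was 3 with treat, and both were 0 with the Welch test (10 and 9 at an unadjusted p under 0.05). By adjusted p alone they were 16 and 11, and with 1 array left out 2 to 2 and 5 to 6. The replicate number as a block gave 0 and 2 members, 1251 and 937 probes and 2 and 5 pathway genes, and changed no call among the members. Uncalled values that changed sign were, with spike-in scaling, Notch4 (-0.0409), Pofut1 (-0.15), Rfng (-0.11), Itch (-0.18), Epn1 (-0.20), Spen (-0.0086) and Hes7 (-0.10), with median centring Epn1 (-0.021), with normexp Numb (0.0202), without ID8G replicate 1 Poglut1 (0.0174; -0.0827 to 0.0174 with 1 array left out), and Fbxw7 without ID8G replicate 2 (0.0383) or GO2 replicate 1 (0.0032). Apart from the constructions named, the cause was not tested. A slide block was not run because there was 1 slide.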
